A study of Mus musculus with 2 samples.

Results

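The genes described here are 9 mouse genes for moving potassium, protons, sodium, bicarbonate and calcium across the membrane of sperm, or for sensing those ions: Kcnu1, Lrrc52, Hvcn1, Atp1a4, Slc9c1, Adcy10, Slc26a3, Slc26a8 and Atp2b4. They were taken by symbol from the gene lists of both count matrices, where all 9 were present among 39232 genes in all. Levels were measured by single-cell RNA sequencing of testis tissue in 2 libraries, 1 per group, so there was no replicate and no test was possible. The study used C57 BL/6 male mice that were 5 weeks old on arrival, spent 1 week adapting and were then fed for 12 weeks, with 10 mice of 20 on each diet. One label states a high-fat diet and defines the high-fat library. The high-fat diet of the study had 60% of its energy from fat. The second label gives the tissue alone, with no word on feeding, and that sample is named the unlabelled-diet library. The labels do not say how many mice went into a library. Germ cells are the stated cell type, yet Sertoli cells, lymphocytes and other somatic cells were present in both libraries.

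A sperm cell makes almost all of its RNA before its nucleus is packed, so the channels and transporters of its tail are transcribed earlier, in spermatocytes and round spermatids, and used later. In the female tract the ion state of sperm changes together: the cell becomes more alkaline and its potassium channel opens, while bicarbonate starts cyclic AMP (cAMP) synthesis, calcium enters, and sperm become able to fertilise an egg. The members cover several steps of that process. Kcnu1 encodes SLO3, the pore of the alkali-activated potassium channel of sperm, and Lrrc52 encodes its auxiliary subunit. Hvcn1 encodes a voltage-gated proton channel and Slc9c1 a sodium-proton exchanger of sperm, both routes by which protons can leave a cell. Atp1a4 encodes the testis isoform of the sodium-potassium pump. Adcy10 encodes the bicarbonate-sensitive soluble adenylyl cyclase, Slc26a3 and Slc26a8 encode anion transporters, and Atp2b4 encodes a plasma membrane calcium pump.

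The unlabelled-diet library held 13805 cell barcodes and 207667609 unique molecular identifiers (UMIs, each a counted RNA molecule), and the high-fat library held 12661 and 201842085. After filters and removal of called doublets, 13286 and 12196 cells were kept. The cells were grouped into 23 clusters, with all 9 members left out of the clustering, and clusters were named from markers, so a class name means cells like that class by their transcripts. Markers of 6 of the 7 germ classes summed highest in their own class in both libraries, those of spermatogonia only narrowly (2401 and 2572 CPM, counts per 1000000 UMIs of the class, beside 2284 and 2421 in late spermatocytes). Markers of early round spermatids summed higher in late round (4175 and 4661 CPM) than in early round spermatids (3543 and 3604), so that name is the least certain. Most clusters of pachytene and late spermatocytes and round spermatids came nearly all from 1 library, so classes and not clusters were compared, and clusters only as pairs. Cells that took no class name were 14.8% and 13.5% of the kept cells. The libraries shared 1507 barcode names, none with an equal UMI total. Levels below are CPM of the UMIs of a class, given first for the unlabelled-diet library and then for the high-fat library, and intervals in parentheses are 95% intervals that cover counting error only. Levels are read along each gene and are not compared between genes.

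The 9 genes fell into 3 patterns along the germ line. Kcnu1, Lrrc52, Atp1a4 and Adcy10 were highest in spermatids, Slc9c1, Slc26a8 and Atp2b4 were highest in spermatocytes, and Hvcn1 and Slc26a3 were counted in so few germ cells that their highest class, spermatogonia, rested on few UMIs. Of the 7 members that reached 20 CPM in a germ class of each library, 4 were highest in spermatids and 3 in spermatocytes. Over all 10173 genes that reached that level, 27.3% were highest in spermatids, 52.8% in spermatocytes and 19.9% in spermatogonia. The number of members highest in spermatids was 4 under every clustering and weighting tried except a finer clustering (Leiden resolution 2), where Adcy10 was highest in early spermatocytes and the number was 3. The exact class was less stable for the spermatocyte-high genes: at that resolution Slc9c1 and Slc26a8 too were highest in early spermatocytes, and with a minimum of 2000 UMIs per cell Slc9c1 was highest in pachytene cells.

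**Figure D1:**
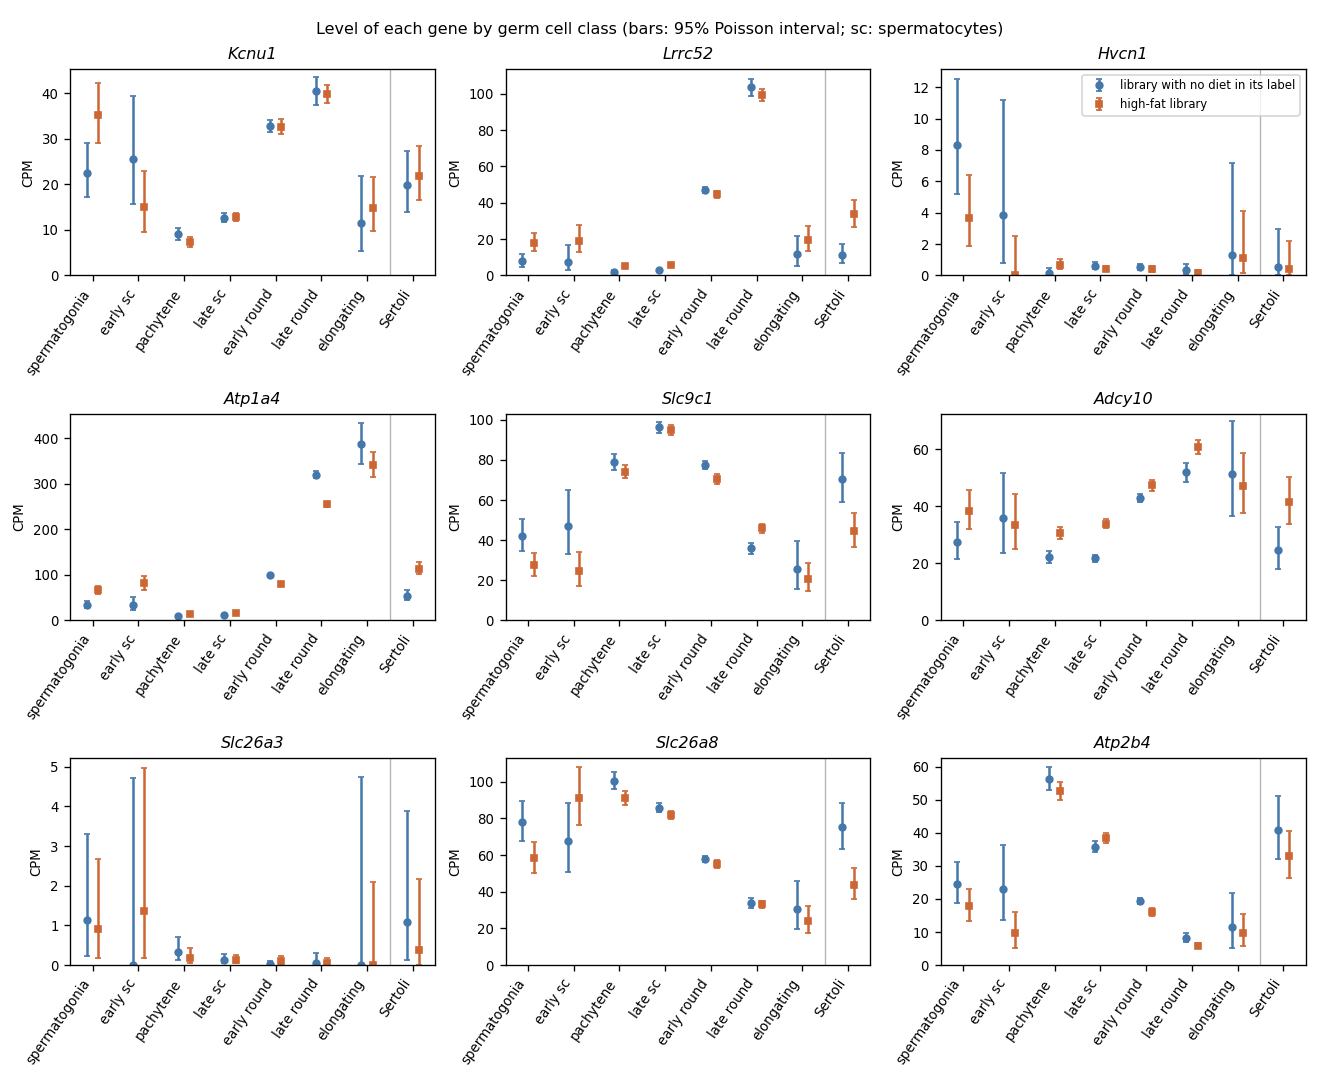
Level of each of the 9 genes in CPM (vertical axis) in 7 germ cell classes and, right of the grey line, Sertoli cells; circles are the unlabelled-diet library, squares the high-fat library, and bars 95% Poisson intervals. Kcnu1, Lrrc52, Atp1a4 and Adcy10 climb towards spermatids, with Lrrc52 at 103.6 and 99.3 CPM in late round spermatids, while Slc9c1, Slc26a8 and Atp2b4 peak in spermatocytes, with Atp2b4 at 56.2 and 52.5 CPM in pachytene cells.

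The stretches of genome just before the gene starts are shown for the 6 genes with an entry among those that make up the contrast between the patterns. Each is the 250 bases before the start, 5′ to 3′ on the gene's own strand, from RefSeq on GRCm38.p6, and 7 of the 9 members had an entry in the promoter table used. Capitals mark AACTG or its reverse complement CAGTT, the core of the site bound by MYB factors, a family whose member A-MYB (Mybl1) drives many genes of pachytene spermatocytes. The 3 spermatid-high genes come first and the 3 spermatocyte-high genes after them.
Atp1a4, chr1:172258425-172258674, minus strand: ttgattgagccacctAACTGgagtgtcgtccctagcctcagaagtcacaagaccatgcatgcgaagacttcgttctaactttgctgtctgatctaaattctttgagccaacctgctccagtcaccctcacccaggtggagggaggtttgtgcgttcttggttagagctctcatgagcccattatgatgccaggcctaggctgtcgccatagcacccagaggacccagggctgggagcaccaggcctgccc
Lrrc52, chr1:167466781-167467030, minus strand: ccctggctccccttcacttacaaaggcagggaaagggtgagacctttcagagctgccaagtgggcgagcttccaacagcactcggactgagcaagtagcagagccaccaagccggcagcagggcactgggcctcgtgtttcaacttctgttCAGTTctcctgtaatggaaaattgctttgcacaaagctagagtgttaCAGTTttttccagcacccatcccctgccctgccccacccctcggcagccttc
Adcy10, chr1:165484933-165485182, plus strand: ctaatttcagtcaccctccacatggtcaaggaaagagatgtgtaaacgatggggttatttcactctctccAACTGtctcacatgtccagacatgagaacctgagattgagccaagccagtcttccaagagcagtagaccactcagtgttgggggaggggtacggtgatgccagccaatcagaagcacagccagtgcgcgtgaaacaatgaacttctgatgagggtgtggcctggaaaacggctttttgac
Slc9c1, chr16:45535016-45535265, plus strand: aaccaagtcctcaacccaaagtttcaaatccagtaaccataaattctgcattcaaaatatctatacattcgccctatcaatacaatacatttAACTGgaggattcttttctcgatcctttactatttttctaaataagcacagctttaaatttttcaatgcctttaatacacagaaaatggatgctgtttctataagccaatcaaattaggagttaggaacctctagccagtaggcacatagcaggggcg
Slc26a8, chr17:28689988-28690237, minus strand: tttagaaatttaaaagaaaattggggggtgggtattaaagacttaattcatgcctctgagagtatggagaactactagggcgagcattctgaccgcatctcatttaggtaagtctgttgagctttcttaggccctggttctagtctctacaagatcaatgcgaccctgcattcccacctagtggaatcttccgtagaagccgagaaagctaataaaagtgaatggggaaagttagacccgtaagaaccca
Atp2b4, chr1:133753748-133753997, minus strand: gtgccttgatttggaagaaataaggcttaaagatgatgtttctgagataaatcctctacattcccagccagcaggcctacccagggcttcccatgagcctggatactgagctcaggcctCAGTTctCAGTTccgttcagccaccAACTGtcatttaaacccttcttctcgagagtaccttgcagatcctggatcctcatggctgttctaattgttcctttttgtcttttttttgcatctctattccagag

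The MYB core letters were present in 5 of the 7 member promoters (Atp1a4, Lrrc52, Adcy10, Slc9c1 and Atp2b4) and in 39.1% of the 32851 promoters of the table. They occurred in genes of both patterns: in all 3 of the spermatid-high genes with an entry and in 2 of the 3 spermatocyte-high genes. In Atp1a4 the letters lay 235 to 231 bases before the start, in Adcy10 180 to 176 and in Slc9c1 158 to 154, while Lrrc52 held them at 2 places on the opposite strand, 99 to 95 and 52 to 48 bases before the start. Atp2b4 held them at 3 places, 131 to 127 and 124 to 120 on the opposite strand and 106 to 102 on its own, the most of the 7; its RefSeq start lies inside the gene, since GENCODE M21 also has transcripts that begin farther upstream. A search on both strands for TGACGT (core of the cAMP response element, bound by CREM) found 0 of 7 member promoters against 6.47% of all, and one for GTTGCC (part of the site of RFX factors) found 0 of 7 against 10.4%. ACAATGG, a site of SOX factors, was in 1 of 7, Slc26a3, against 3.02% of all. GTTGCC can share its first letters with CAGTT, a match is a description of letters only, and no match says nothing of a factor. G and C made up 54.8%, 56.0% and 50% of the Atp1a4, Lrrc52 and Adcy10 stretches and 35.6%, 43.2% and 45.6% of those of Slc9c1, Slc26a8 and Atp2b4, with a median of 52.4% over the table.

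Of the potassium channel pair, Kcnu1 (ENSMUSG00000031576.16, a gene on chromosome 8) was highest in late round spermatids, at 40.4 (37.5 to 43.5) and 39.8 (37.8 to 41.8) CPM. Early round spermatids held 32.8 and 32.7 CPM, and pachytene spermatocytes 9.04 and 7.29. Late round spermatids were thus 4.47-fold (3.77 to 5.33) and 5.46-fold (4.70 to 6.37) above pachytene cells. In elongating spermatids Kcnu1 was lower again, at 11.6 and 14.8 CPM from 9 and 26 UMIs. Spermatogonia read 22.6 and 35.2 CPM, close to late round spermatids in the high-fat library, and Sertoli cells, which are not expected to use a sperm channel, read 19.9 and 21.9.

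Lrrc52 (ENSMUSG00000040485.5, chromosome 1), which shifts the opening of SLO3 to lower voltages, had the sharper onset of the pair. It stood at 2.19 (1.57 to 2.99) and 5.39 (4.55 to 6.35) CPM in pachytene spermatocytes, at 47.1 and 44.6 in early round spermatids, and at 103.6 (98.9 to 108) and 99.3 (96.1 to 102) in late round spermatids. Late round spermatids were highest and early round spermatids next in both libraries, and the ranges of these classes did not overlap. The step from pachytene cells to late round spermatids was 47.2-fold (34.6 to 66.3) and 18.4-fold (15.6 to 21.9). Between the libraries the intervals of the pachytene level did not overlap, and those of the late round level did. Lrrc52 in elongating spermatids was 8.95-fold (4.71 to 19.6) and 5.12-fold (3.66 to 7.41) below late round spermatids.

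Atp1a4 (ENSMUSG00000007107.6, chromosome 1), the pump isoform that sperm need for motility, was the only member with its highest level in elongating spermatids. Levels were 9.37 and 13.1 CPM in pachytene spermatocytes, 98.8 and 80.1 in early round spermatids, 320.2 (312 to 329) and 255.0 (250 to 260) in late round spermatids, and 386.8 (344 to 433) and 340.8 (314 to 369) in elongating spermatids. Each of these steps went the same way in both libraries. Late round spermatids were 34.2-fold (29.3 to 40.02) and 19.5-fold (17.6 to 21.8) above pachytene cells, and elongating spermatids were 1.21-fold (1.07 to 1.36) and 1.34-fold (1.23 to 1.45) above late round spermatids. Kcnu1 and Lrrc52 went the other way over that last step.

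Adcy10 (ENSMUSG00000026567.16, chromosome 1), the enzyme that turns bicarbonate into a cAMP signal, had the shallowest course of the spermatid-high genes. It read 22.2 and 30.5 CPM in pachytene cells, 21.8 and 33.9 in late spermatocytes, 42.9 and 47.3 in early round and 51.9 (48.7 to 55.4) and 60.8 (58.3 to 63.3) in late round spermatids. Elongating spermatids, at 51.4 and 47.3 CPM, did not differ from early round spermatids beyond the gap between the libraries. Late round spermatids were 2.34-fold (2.08 to 2.64) and 1.99-fold (1.84 to 2.16) above pachytene cells.

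Among the spermatocyte-high genes, Slc9c1 (ENSMUSG00000033210.16, chromosome 16), an exchanger that also carries a voltage sensor and a cyclic nucleotide binding domain, was highest in late spermatocytes at 96.3 (93.7 to 98.9) and 95.02 (92.6 to 97.5) CPM. Pachytene cells held 79.0 and 74.1 CPM and early round spermatids 77.4 and 70.5, which did not separate beyond the gap between the libraries. Late round spermatids were lower, at 35.8 and 45.9, which is 2.69-fold (2.47 to 2.92) and 2.07-fold (1.96 to 2.18) below late spermatocytes. Slc9c1 transcripts were thus still frequent in early round spermatids, where Atp1a4 and Lrrc52 were climbing.

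Slc26a8 (ENSMUSG00000036196.16, chromosome 17), a testis anion transporter found at the annulus of the sperm tail, was at 100.5 (96.0 to 105) and 91.0 (87.5 to 94.7) CPM in pachytene spermatocytes. It was lower at each later stage: late spermatocytes (86.0 and 81.8), early round spermatids (57.8 and 55.3), then late round spermatids (34.0 and 33.1). Pachytene cells were 2.96-fold (2.70 to 3.25) and 2.75-fold (2.57 to 2.94) above late round spermatids. Early spermatocytes read 67.7 (50.7 to 88.6) and 91.3 (76.4 to 108) CPM from 53 and 133 UMIs, so in the high-fat library the early and pachytene classes did not differ.

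Atp2b4 (ENSMUSG00000026463.17, chromosome 1), a pump that clears calcium from sperm and is also used by smooth muscle and vessels, had the steepest downward course. Pachytene spermatocytes held 56.2 (52.8 to 59.8) and 52.5 (49.8 to 55.3) CPM, late spermatocytes 35.8 and 38.4, early round spermatids 19.4 and 16.0, and late round spermatids 8.25 and 5.81. The level in late round spermatids was 6.82-fold (5.73 to 8.16) and 9.04-fold (7.84 to 10.5) below that in pachytene cells. Outside the germ line its highest class was peritubular myoid cells, a cluster whose leading genes also included the endothelial genes Cldn5 and Ly6c1, at 63.9 (46.8 to 85.2) and 164.8 (123 to 216) CPM from 46 and 53 UMIs.

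Hvcn1 (ENSMUSG00000064267.13, chromosome 5) and Slc26a3 (ENSMUSG00000001225.12, chromosome 12) were near the limit of detection in germ cells. Hvcn1 had 131 and 107 UMIs in all kept cells and stayed between 0.164 and 0.670 CPM from pachytene spermatocytes to late round spermatids. Spermatogonia read 8.28 (5.19 to 12.5) and 3.67 (1.90 to 6.41) CPM from 22 and 12 UMIs, and lymphocytes, a cell type where this proton channel is known to work, read 31.1 (12.5 to 64.1) and 28.0 (16.0 to 45.5) from 7 and 16. Sertoli cells had 1 UMI in each library. Hvcn1 overlaps Tctn1 on the opposite strand, which had 2728 and 2624 UMIs in the kept cells against 131 and 107 of Hvcn1, and the strand used in counting is not given in the sources used here, so the Hvcn1 counts are uncertain. Slc26a3, best known as a chloride-bicarbonate exchanger of the gut, had 32 and 26 UMIs in all kept cells, each in a different cell, and was at or below 1.37 CPM in every named class.

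The course can be followed in finer steps because each library had several clusters of these stages, placed here by their summed level of elongating spermatid markers. In the unlabelled-diet library, Atp1a4 read 10.9 CPM in late spermatocytes (cluster 0), then 33.9, 106.9 and 199.6 in the 3 early round clusters (2, 8 and 7) and 321.7 in the late round cluster 11. In the high-fat library it read 15.9 in late spermatocytes (cluster 1), 33.6 and 116.7 in the 2 early round clusters (12 and 9) and 255.4 in the late round cluster 5. Each cluster stood above the cluster before it in both series.

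Lrrc52 followed with 14.2, 51.9, 97.6 and 104.3 CPM over clusters 2, 8, 7 and 11 and with 17.4, 66.0 and 99.5 over clusters 12, 9 and 5. It had thus nearly reached its highest level in cluster 7, while Atp1a4 there was well below its level in cluster 11. Over the same clusters Atp2b4 went from 28.4 to 14.5, 8.94 and 8.19 CPM, and from 22.1 to 11.2 and 5.75. Within early round spermatids of each library Atp1a4 and Lrrc52 were thus higher, and Atp2b4 lower, in each later cluster.

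**Figure D2:**
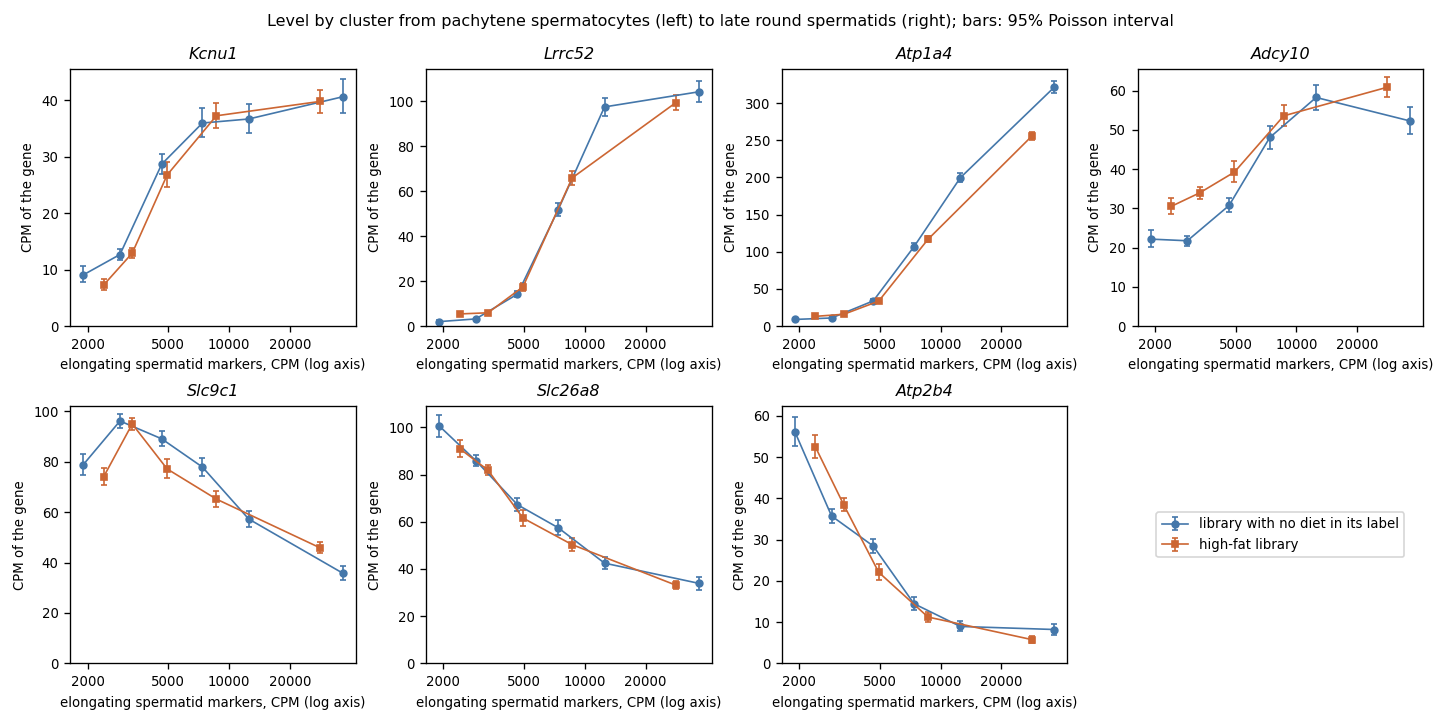
Level of 7 genes in CPM (vertical axis) by cluster, ordered along a log axis by the summed CPM of elongating spermatid markers; points are clusters of at least 500 cells of pachytene and late spermatocytes and round spermatids, joined by lines within a library, with 95% Poisson intervals. Atp1a4 climbs from 10.9 to 321.7 CPM in the unlabelled-diet library, and from 15.9 to 255.4 in the high-fat library, over the same stretch in which Atp2b4 ends at 8.19 and 5.75 CPM.

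The depth and the free RNA of droplet data bear on the classes with few UMIs per cell. Sertoli cells, with a median of 1350 and 1525 UMIs, held UMIs of every member, and their levels were 54.2 and 113.5 CPM for Atp1a4, 11.3 and 33.7 for Lrrc52, 70.3 and 44.6 for Slc9c1 and 75.2 and 43.8 for Slc26a8. Spermatogonia and early spermatocytes were also shallow, at medians of 2110.5 to 2371.5 UMIs. For Atp1a4, Lrrc52 and Slc9c1 they were at or below the Sertoli level in both libraries. The levels of these genes there are not set apart from those of Sertoli cells, and the part of free RNA was not tested. Kcnu1 in spermatogonia of the high-fat library (1.60-fold, 1.16 to 2.25) and Slc26a8 in early spermatocytes of that library (2.08-fold, 1.61 to 2.70) were above its Sertoli level, and neither was in the other library (1.14-fold, 0.743 to 1.76, and 0.901-fold, 0.644 to 1.24). The difference between libraries in those ratios was not tested. Late round spermatids stood above Sertoli cells for all 4 spermatid-high genes, by 1.47-fold (Adcy10, high-fat library) to 9.19-fold (Lrrc52, unlabelled-diet library).

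Of the spermatocyte-high genes, pachytene cells were above the Sertoli level by 1.34-fold (1.13 to 1.60) and 2.08-fold (1.72 to 2.53) for Slc26a8 and by 1.38-fold (1.09 to 1.76) and 1.60-fold (1.28 to 2.02) for Atp2b4. For Slc9c1 the ratio was 1.12-fold (0.939 to 1.35) and 1.66-fold (1.37 to 2.02). In the unlabelled-diet library the Slc9c1 levels of pachytene and Sertoli cells therefore did not separate. In late spermatocytes, its highest class, Slc9c1 was above the Sertoli level in both libraries, at 96.3 (93.7 to 98.9) beside 70.3 (58.8 to 83.4) CPM and at 95.02 (92.6 to 97.5) beside 44.6 (36.8 to 53.6).

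Shares of cells with a UMI were compared at equal depth, since the classes differed in UMIs per cell. In pooled round spermatids, with medians of 15056.5 and 19798.5 UMIs, 66.9% and 78.1% of cells had a UMI of Atp1a4, against 11.8% and 19.01% of Sertoli cells. After every cell was thinned to 1000 UMIs the shares were 13.2% (12.4 to 14.2) and 14.8% (13.6 to 15.9) in round spermatids, 29.0% and 26.7% in elongating spermatids, 6.97% and 11.1% in Sertoli cells and 1.22% and 2.08% in pooled pachytene and late spermatocytes. Spermatids were above the Sertoli share in both libraries, and spermatocytes were below it.

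For Lrrc52, found in 47.1% and 61.1% of round spermatids and 2.63% and 6.58% of Sertoli cells before thinning, the thinned shares were 5.68% and 6.55% of round spermatids, 1.84% and 4.06% of Sertoli cells and 0.228% and 0.7501% of spermatocytes. Thinned Kcnu1 shares were 3.46% and 3.94% in round spermatids (39.8% and 49.5% before) against 1.97% and 2.36% in Sertoli cells (4.61% and 4.06% before). Adcy10 shares were 4.32% and 5.43% (46.6% and 60.4% before) against 2.89% and 4.31% (5.66% and 7.96% before). The intervals of spermatids and Sertoli cells did not overlap for Lrrc52 in either library, and overlapped for Kcnu1 and Adcy10 in both. For Kcnu1 and Adcy10 the thinned shares thus do not separate spermatids from Sertoli cells.

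The spermatocyte-high genes were counted in pooled pachytene and late spermatocytes, with medians of 15990.5 and 19924 UMIs. For Slc9c1 the thinned shares were 9.19% and 8.63% (74.5% and 74.1% before) against 3.95% and 4.71% in Sertoli cells (10.3% and 8.29% before). For Slc26a8 they were 7.80% and 7.59% (74.3% and 73.1% before) against 6.71% (5.04 to 8.73) and 4.39% in Sertoli cells (13.4% and 8.20% before), so the intervals overlapped in the unlabelled-diet library. For Atp2b4, found in 49.9% and 51.8% of spermatocytes and 9.08% and 5.52% of Sertoli cells before thinning, the thinned shares were 3.70% and 4.18%. Sertoli cells had 4.21% (2.90 to 5.89) and 1.95% (1.25 to 2.89) after thinning. In the unlabelled-diet library the thinned Atp2b4 share thus did not separate spermatocytes from Sertoli cells.

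**Figure D3:**
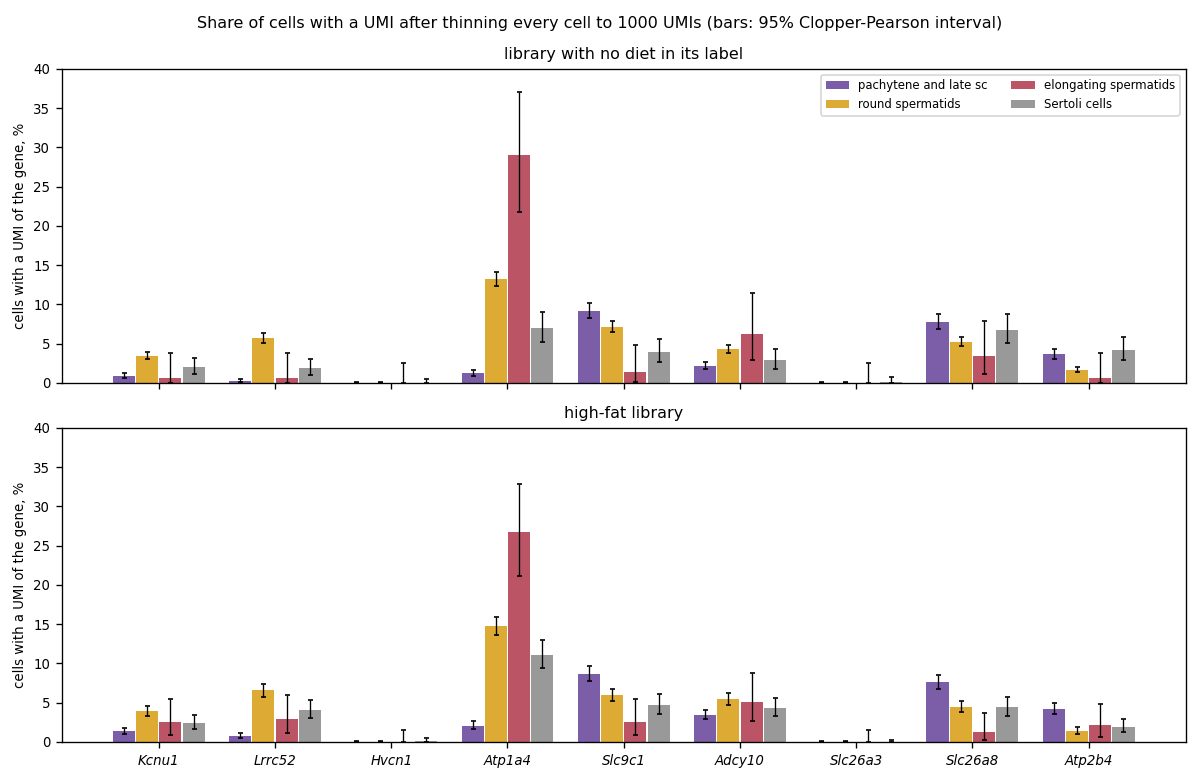
Percent of cells with at least 1 UMI of each gene (vertical axis) after thinning every cell to 1000 UMIs, in pooled pachytene and late spermatocytes, pooled round spermatids, elongating spermatids and Sertoli cells of each library; bars on the columns are 95% Clopper-Pearson intervals. Atp1a4 reaches 29.0% and 26.7% of elongating spermatids, above the Sertoli shares of 6.97% and 11.1%.

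The design puts the high-fat library beside the unlabelled-diet library. In pooled round spermatids 0 of the 8 members with at least 50 UMIs in both libraries together differed by 2-fold or more, against 18.7% of the 19811 genes with that many. The log2 ratios, high-fat library over the other, ran from -0.68 (Hvcn1, from 49 and 27 UMIs) to 0.26 (Lrrc52 and Adcy10), with a median of -0.08 beside 0.04 for all genes. With 1 library per group a ratio compares these libraries and not the diets.

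Among single members in round spermatids, Atp2b4 was lower in the high-fat library, at 17.4 (16.6 to 18.2) and 11.5 (10.8 to 12.3) CPM, a log2 ratio of -0.59 (-0.70 to -0.48). Lrrc52 was higher, at 57.2 and 68.5 CPM, log2 0.26 (0.21 to 0.31), as was Adcy10, at 44.5 and 53.2 CPM, log2 0.26 (0.20 to 0.32). The makeup of the pooled class moved with these values. Of all kept UMIs, early round spermatids held 41.9% and late round spermatids 9.11% in the unlabelled-diet library. In the high-fat library these shares were 25.8% and 20.1%. Within late round spermatids alone the log2 ratio was -0.06 (-0.14 to 0.02) for Lrrc52 and -0.33 (-0.38 to -0.28) for Atp1a4, which in the pooled class was 0.18 (0.15 to 0.21). Early round spermatids gave -0.08 (-0.16 to -0.00) and -0.30 (-0.36 to -0.25), so for Lrrc52 and Atp1a4 the pooled class and its parts had opposite signs. The early round class also held unlike clusters in the libraries: cluster 7, with the highest early round levels of both genes, had no partner in the high-fat library. With a minimum of 2000 UMIs per cell the pooled values too were below 0, at -0.03 for Lrrc52 and -0.10 for Atp1a4. The pooled Atp2b4 value shrank to -0.07 with that minimum and to -0.23 at Leiden resolution 0.5, and the Adcy10 value to 0.15 in each.

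Atp2b4 and Adcy10 kept their direction within both parts. Atp2b4 read log2 -0.27 (-0.40 to -0.15) in early and -0.50 (-0.81 to -0.19) in late round spermatids, and Adcy10 read 0.14 (0.07 to 0.22) and 0.23 (0.12 to 0.34). Slc9c1 was -0.13 (-0.19 to -0.08) in early and 0.36 (0.23 to 0.49) in late round spermatids. Kcnu1 was -0.01 (-0.10 to 0.08) and -0.02 (-0.15 to 0.11), and its levels in the 2 libraries were not separated by counting error in either class.

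**Figure D4:**
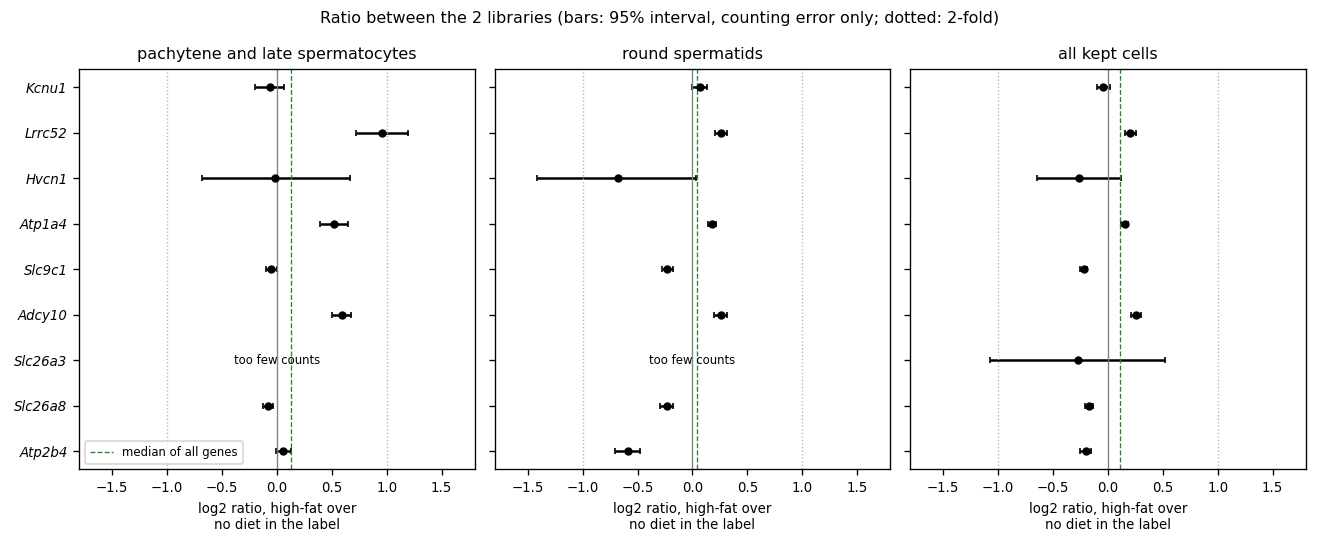
The log2 ratio of each gene between the libraries (horizontal axis, high-fat over the unlabelled-diet library) in pooled pachytene and late spermatocytes, pooled round spermatids and all kept cells; bars are 95% intervals for counting error only, the dashed line is the median of all genes and dotted lines mark 2-fold. No member passes 2-fold in these 3 sets, and Lrrc52 in spermatocytes, at 0.95, lies closest to it.

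In pooled pachytene and late spermatocytes 0 of 8 members passed 2-fold, against 16.9% of 17781 genes, and the median was 0.02 beside 0.13 for all genes. Lrrc52 was at 2.97 (2.59 to 3.40) and 5.76 (5.27 to 6.28) CPM, log2 0.95 (0.72 to 1.19). Atp1a4 was at 10.5 and 15.0 CPM, log2 0.52 (0.39 to 0.65), and Adcy10 at 21.9 and 32.9 CPM, log2 0.59 (0.50 to 0.68). The other 5 members lay between -0.08 and 0.06, among them the 3 spermatocyte-high genes Slc9c1, Slc26a8 and Atp2b4.

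The 3 genes that were higher in spermatocytes of the high-fat library were also higher there in Sertoli cells: Lrrc52 by log2 1.58 (0.88 to 2.34), Atp1a4 by 1.07 (0.73 to 1.41) and Adcy10 by 0.75 (0.24 to 1.28). Lrrc52 and Atp1a4 in spermatocytes were below their Sertoli level in each library, 5.14-fold and 6.24-fold for Lrrc52 in pachytene cells. The summed elongating spermatid markers, all 14 of which were measured, read 5715 and 10352 CPM in Sertoli cells and 2401 CPM (high-fat library) beside 1915 in pachytene spermatocytes. They were thus also higher in the high-fat library, and their part in the result was not tested. Over all kept cells 0 of 9 members passed 2-fold, against 17.1% of 23796 genes, and their log2 ratios ran from -0.27 (Slc26a3) to 0.26 (Adcy10), with a median of -0.17 beside 0.11 for all genes.

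By named class, the members past 2-fold were few and all were higher in the high-fat library. Lrrc52 passed in spermatogonia (log2 1.19, 0.45 to 1.98), where 10.6% of all genes passed, in pachytene spermatocytes (log2 1.30, 0.79 to 1.84), where 14.6% passed, and in Sertoli cells, where 17.3% passed. Atp1a4 passed in early spermatocytes (log2 1.24, 0.63 to 1.90), where 8.59% of genes passed, and in Sertoli cells. Atp2b4 passed in peritubular myoid cells (log2 1.37, 0.77 to 1.97), where 9.81% passed, from 46 and 53 UMIs. In late spermatocytes, early and late round spermatids and elongating spermatids the count was 0, of 8, 8, 7 and 4 members with enough UMIs, against 17.2%, 16.6%, 18.6% and 9.28% of all genes. It was also 0 of 4 in interstitial stroma, against 6.3%, and 0 of 1 in lymphocytes, against 27.8%.

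Clusters of the 2 libraries that shared 5 or 6 of their 10 leading genes were compared as pairs. Only the early round pairs gave a finer stage. Levels in the late round and spermatocyte pairs were nearly those of the whole classes, so their ratios repeat the class ratios and are no separate check. For the early round pair 2 and 12 the ratio of high-fat over the other library was 0.990 (0.903 to 1.09) for Atp1a4 and 1.23 (1.07 to 1.40) for Lrrc52, and for the pair 8 and 9 it was 1.09 (1.04 to 1.15) and 1.27 (1.18 to 1.37). For the late round pair 11 and 5 it was 0.794 (0.769 to 0.821) and 0.954 (0.902 to 1.01). In the spermatocyte pairs the Lrrc52 ratio was larger, 1.86 (1.55 to 2.24) in late spermatocytes (0 and 1) and 2.73 (1.88 to 4.05) in pachytene cells (14 and 13).

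The genes closest to each member in course were found by Pearson correlation of log2(CPM + 1) over 14 profiles, 7 germ classes in 2 libraries, among 10173 genes. These profiles share libraries, depth and neighbouring stages, so the values are descriptions. Lrrc52 was most like Gtsf1l, 4930522H14Rik and Pfn3, the last a profilin of spermatids, each at r of 0.99 or above. Atp1a4 was most like Prm3, a protamine family gene, Morn3 and Cdc14a, also at 0.99 or above. Kcnu1 was most like Zfp87, Pde4a and Chrna5 (0.95, 0.95 and 0.94), and Adcy10 most like Fscb, a gene of the sperm fibrous sheath, Dusp4 and Sept4 (0.97, 0.96 and 0.96).

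On the spermatocyte side, Slc9c1 was closest to Haus1, Suclg1 and Gm9748 (0.98 for each of the first pair), Slc26a8 to Nup188, Dhx16 and Rpn1 (0.97 each), and Atp2b4 to Prss43, Tapbp and Ift46 (0.97, 0.97 and 0.96). Hvcn1 and Slc26a3 were too sparse for their likeness to other genes to be read. Between members, Atp1a4 ran with Adcy10 (r = 0.90) and opposite to Atp2b4 (-0.93) and Slc26a8 (-0.91). Kcnu1 ran with its partner Lrrc52 (0.81), but Lrrc52 was closer to Adcy10 (0.86) and nearly as close to Atp1a4 (0.79).

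Related genes from 7 lists set the members in their families. Of the Slo channels and their subunits, 10 genes were measured and 7 had enough UMIs in round spermatids, of which 1 was lower past 2-fold. Over all genes in round spermatids 10.6% were higher and 8.09% lower past 2-fold. Kcnmb4, a beta subunit of the related SLO1 channel, was highest in pachytene cells (218 and 243 CPM), but it overlaps the more abundant Kcnmb4os1. Kcnma1, the pore of SLO1, stayed at 15.8 and 12.8 CPM or lower in all germ classes and overlaps the more abundant 4930519K11Rik, and Kcnmb3 stayed at 10.5 or lower. Kcnmb2 was lower past 2-fold in each of the 3 germ classes where it had enough UMIs, at 28.3 and 10.4 CPM in late round spermatids, and Kcnt2 in the 1 class where it did (early round spermatids, 1.82 and 0.344 CPM).

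Among 15 subunits of the sodium-potassium pump and its relatives, 10 had enough UMIs in round spermatids, with 2 higher and 1 lower past 2-fold. Atp1b3, a beta subunit of the pump, had a course like that of Atp1a4, from 62.5 and 67.9 CPM in pachytene cells to 450 and 402 in late round and 517 and 568 in elongating spermatids. The small regulatory subunits Fxyd2 and Fxyd5 differed most between the libraries. Fxyd2 read 1.04 and 64.2 CPM in pooled pachytene and late spermatocytes, from 75 and 5707 UMIs, a ratio of 61.6 (49.1 to 78.5), and 3.45 and 67.3 in round spermatids, a ratio of 19.5 (17.5 to 21.8). The pooled Fxyd2 ratio covered unlike parts, with 0.756 and 65.9 CPM in early round, 15.8 and 69.0 in late round and 38.5 and 76.9 in elongating spermatids, the last just under 2-fold.

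Fxyd5 went the other way, at 62.6 and 18.4 CPM in spermatocytes and 48.8 and 12.1 in round spermatids, a ratio of 0.248 (0.231 to 0.265) in the latter. Fxyd3, which overlaps the more abundant Lgi4, was lower past 2-fold in early round spermatids, the 1 germ class where it had enough UMIs. In Sertoli cells the ratio was 11.2 (5.28 to 28.6) for Fxyd2 and 0.205 (0.129 to 0.317) for Fxyd5, the same directions as in germ cells. The Sertoli levels were 3.76 and 42.3 CPM for Fxyd2, from 7 and 108 UMIs, and 51.5 and 10.6 for Fxyd5. These shallow cells also held UMIs of every member, and how much of both levels was free RNA was not tested.

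None of the 10 sodium-proton exchangers with enough UMIs in round spermatids, of 11 measured, passed 2-fold. Slc9b1, a testis exchanger of another subfamily, was highest in late spermatocytes (260 and 240 CPM), as Slc9c1 was, while Slc9a8 was highest in early spermatocytes. Of 22 anion transporters and carbonic anhydrases, 12 had enough UMIs there and 2 were lower past 2-fold. Car2, a carbonic anhydrase that makes bicarbonate, read 0.805 and 1.64 CPM in early round, 33.8 and 27.6 in late round and 412 and 484 in elongating spermatids. Like Atp1a4 it was highest in elongating spermatids. Most of the Car2 rise came in the last step, while most of the Atp1a4 rise came before it. Slc4a8 and Slc4a7, which move bicarbonate with sodium, peaked in late spermatocytes (55.0 and 49.2 CPM) and early spermatocytes (40.9 and 46.7). Slc26a10 was lower past 2-fold in the 3 germ classes with enough UMIs, and overlaps B4galnt1.

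In the cAMP list, 23 of 25 genes had enough UMIs in round spermatids, with 4 higher and 1 lower past 2-fold. Crem, the transcriptional switch of spermatids, was at 679 and 662 CPM in early round spermatids, Prkar1a, a regulatory subunit of protein kinase A, at 503 and 464, and the phosphodiesterase Pde1a was highest in late round spermatids, at 258 and 282. The cAMP-activated exchange factors Rapgef3 and Rapgef4 and the membrane cyclase Adcy6 were higher past 2-fold in every germ class with enough UMIs. In pooled pachytene and late spermatocytes Rapgef3 read 0.333 and 16.2 CPM (48.7-fold, 32.6 to 76.3), Rapgef4 0.514 and 5.08 (9.90-fold, 7.07 to 14.2) and Adcy6 2.74 and 13.4 (4.89-fold, 4.20 to 5.71). Adcy10, the sperm cyclase, had a log2 ratio of 0.59 there.

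Among 12 calcium pumps and exchangers, 7 had enough UMIs in round spermatids and 1 was higher past 2-fold, with a median log2 ratio of 0.64. Atp2a2 and Atp2c1, pumps of internal stores, were highest in early spermatocytes, and Atp2c1 overlaps the more abundant Aste1. The sodium-calcium exchanger Slc8a1 was highest in late spermatocytes, at 34.4 and 54.2 CPM. Slc8b1 was higher past 2-fold in spermatogonia, the 1 germ class where it had enough UMIs. The 14 subunits of CatSper, the calcium channel of the sperm tail, all had enough UMIs, and 0 of them passed 2-fold in round spermatids, with a median of -0.05. Of the 13 that reached 20 CPM, 5 were highest in spermatids, as Efcab9 was (526 and 528 CPM in late round spermatids), and 8 in spermatocytes, as were Catsperz and Catsper2, which overlap Kcnk4 and Pdia3.

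The cells with no class name held a part of the members' UMIs: 12.3% and 8.12% for Kcnu1, 15.0% and 6.59% for Adcy10, 15.3% and 2.94% for Slc9c1 and 20.2% and 3.14% for Atp2b4. Over all genes these cells held 8.32% and 2.15% of the kept UMIs, so that share too was lower in the high-fat library. Lrrc52 (2.89% and 2.70%), Atp1a4 (4.80% and 4.87%) and Hvcn1 (7.63% and 2.80%) were below the share over all genes in the unlabelled-diet library. In the high-fat library they were above it. Unnamed cells formed 3 clusters. In cluster 10, shallow cells of 1890.5 and 2955.5 median UMIs led by 1700020G17Rik, Gm45341 and Gm26939, Kcnu1 was 4.60-fold (4.03 to 5.24) and 4.03-fold (3.51 to 4.61) above late round spermatids, its highest class, and Adcy10 was 4.60-fold (4.10 to 5.17) and 3.77-fold (3.36 to 4.21) above. Lrrc52 in the same cells was below its highest class, 0.487 and 0.656 of it, so in these cells Kcnu1 and its partner went opposite ways against late round spermatids.

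**Figure D5:**
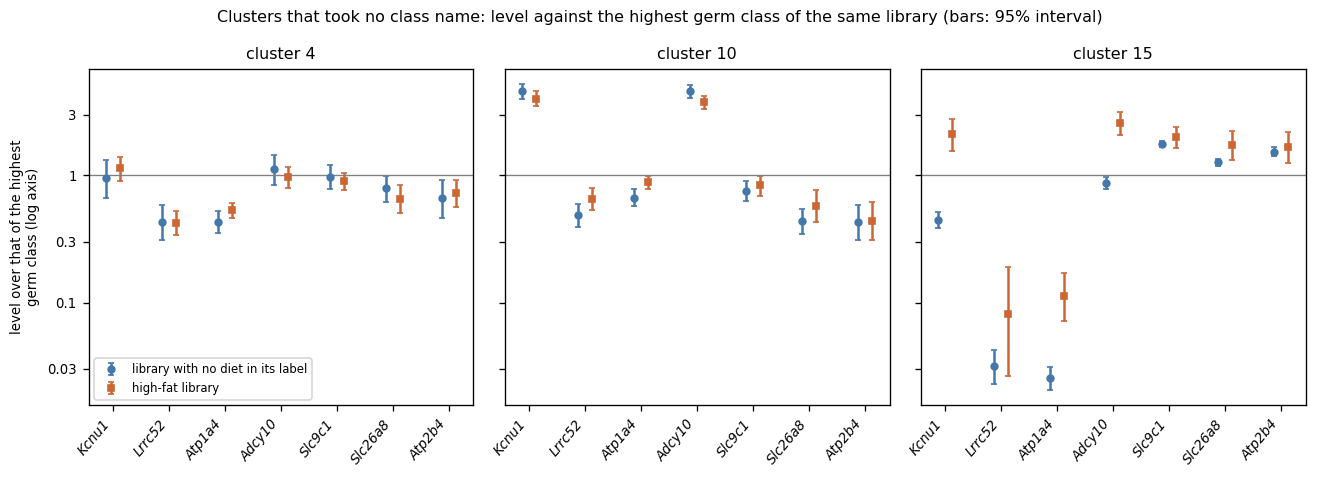
Level of 7 genes in the 3 clusters that took no class name, divided by the level in the gene's highest germ class of the same library (vertical log axis); circles are the unlabelled-diet library, squares the high-fat library, and bars 95% intervals for counting error. Kcnu1 and Adcy10 in cluster 10 lie at 3.77-fold to 4.60-fold, and Slc9c1, Slc26a8 and Atp2b4 lie above 1 in cluster 15 in both libraries.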

How the data were processed

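Testis tissue of 2 groups, 1 library each, was measured by droplet single-cell RNA sequencing. The deposited values are UMI counts per gene and barcode, not normalised, written by PISA 1.0 per the file headers; Cell Ranger 2.1.1 is named per the submitters' processing notes. Aligner, build and annotation: not given in the sources used here. No deposited barcode was under 1000 UMIs. All 9 gene IDs matched GENCODE M21, used only for overlaps; no gene coordinates are given apart from those of the RefSeq promoter table.

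Cells needed 500 UMIs, 250 genes and at most 20% mitochondrial UMIs. Scrublet in scanpy 1.11.5 (expected rate 6%) called 517 (3.75%) and 462 (3.65%) doublets, which were left out. Cells of both libraries were clustered together without integration on 2000 variable genes, 50 components and 20 neighbours (Leiden, leidenalg 0.10.2, resolution 1), leaving out 118 genes of the members and related lists. Names came from the class with the most markers within the 10 leading genes of a cluster, where 1 was enough. Failing that, they came from the mean log2 fold of the markers. In both cases at least 3 markers of the class had to reach the smallest marker level. A cluster with no marker within its leading genes also took no name if its depth was over 3-fold below the library median. The smallest mean marker fold of 0.75, marker fold of 1 and marker level of 0.25 per 10000 UMIs were chosen with the clusters known. Under all these rules clusters 4, 10 and 15 stayed unnamed, and the mean fold named clusters 7, 8 and 9. The members, lists and markers were chosen with earlier results of these data known.

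Counts were summed per library and class. Intervals (scipy 1.17.1) are exact Poisson for CPM, conditional binomial for ratios and Clopper-Pearson for shares. A library ratio needed 50 counts; past 2-fold means an absolute log2 ratio of at least 1. Shares of cells were also computed with every cell thinned to 1000 UMIs, which left out no cell of the classes given. The code for the ratio intervals was checked on simulated counts, which is no test of the libraries. Named genes were all members, the 3 most abundant of each related list, genes of a list past 2-fold the same way in every germ class with enough counts, and the 3 genes most like each member. Some genes that this rule names are not reported here. Clustering, depth, doublets, weighting, centring and the count minimum were varied.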

Additional observations from a re-analysis of the deposited data

Results flagged for a closer look

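The values here come from cells that took no class name and so entered no comparison between classes; they are listed because they stood above the highest germ class of the same library in both libraries. In cluster 10 (672 cells of the unlabelled-diet library and 416 of the high-fat library), Kcnu1 was at 186.0 and 160.5 CPM, beside 40.4 and 39.8 in late round spermatids. Adcy10 in these cells was at 239.2 and 228.8 CPM, beside 51.9 and 60.8. The cells had median depths of 1890.5 and 2955.5 UMIs, and their leading genes included 1700020G17Rik, 4930405D01Rik, P2rx3, Pcdh9 and Ctnna3, with no marker of a germ class among the 10.

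In cluster 15 (718 and 76 cells), Slc9c1 was at 170.5 and 189.9 CPM beside 96.3 and 95.02 in late spermatocytes. Slc26a8 was at 127.7 and 157.7 CPM, beside 100.5 in pachytene and 91.3 in early spermatocytes, and Atp2b4 at 86.46 and 88.5 CPM, beside 56.2 and 52.5 in pachytene cells. The median depth was 12871.5 UMIs in the unlabelled-diet library and 3811.5 in the high-fat library, and leading genes included Fgf14, Magi2, Kcnq1ot1 and Camkmt. Kcnu1 and Adcy10 in these cells were above their highest germ class in the high-fat library only, at 83.7 and 157.7 CPM; the difference between libraries was not tested. The causes of these levels were not tested.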

How the results depend on the processing

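The count of members highest in spermatids was 4 under 8 of the 9 alternatives and 3 at Leiden resolution 2. Each alternative median was set against a range from the median of the members' lower interval bounds to the median of their upper bounds. That range is not a counting interval of the median itself. The median log2 ratio between libraries stayed within it except in these settings, whose cause was not tested. Over all kept cells it was -0.17 and became -0.28 when centred on the median of all genes. In round spermatids it was -0.08 and became 0.19 with cells thinned to 2000 UMIs. In pooled pachytene and late spermatocytes it was 0.02 and became -0.19 with each library clustered on its own, -0.0737 at Leiden resolution 2, -0.10 at resolution 0.5, -0.10 with a minimum of 2000 UMIs per cell and -0.11 when centred, so its sign is not settled. All genes shifted by a median of 0.13 there and 0.11 over all kept cells. Of 151 alternatives for single members, 108 stayed within the counting interval of the value as reported, 43 moved outside it, 5 changed sign and 1 passed 2-fold. The 151 include runs with no count minimum, which returned the reported value each time, since these members already had at least 50 counts. Those runs were fixed in advance and show no stability. In round spermatids Lrrc52 was -0.03 and Atp1a4 -0.10 with a minimum of 2000 UMIs, Atp1a4 was -0.06 at resolution 0.5, and Hvcn1 was 0.57 when thinned. Over all kept cells Hvcn1 was 0.02 and Slc26a3 -1.03 with every cell weighted equally. No paired analysis was possible because there was 1 library per group. Leaving out a replicate was likewise not possible. Depth limited Hvcn1 and Slc26a3, and the shallow spermatogonia, early spermatocytes and elongating spermatids.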
